A study of Homo sapiens with 6 samples.

Results

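Expression of 10 genes of cell adhesion was compared in CAL27 cells with and without overexpression of RBM24: the integrin alpha chains ITGA2, ITGA5 and ITGAV, the integrin beta chains ITGB1, ITGB5, ITGB6 and ITGB8, the immunoglobulin-superfamily adhesion molecules L1CAM and ICAM1, and the matrix protein fibronectin, FN1. They were taken by symbol from the 32353 genes of the deposited count table, each symbol matched 1 row, and all 10 passed the filter on low counts along with 17887 genes in all. CAL27 is an established human line of tongue squamous cell carcinoma. Of the 6 libraries, 3 are of cells with a control plasmid and 3 of cells made to overexpress RBM24, an RNA-binding protein that regulates splicing and mRNA stability. The libraries of both groups are of the same line and were sequenced from total RNA. No time after plasmid delivery, dose or clone is named in the sources used here. Nor do they say how replicates were made: the spread that the p-values rest on is that between libraries, and it may be technical.

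Integrins are pairs of an alpha and a beta chain that span the membrane, bind matrix outside and link to actin inside through talin and kindlin. Alpha-2/beta-1 binds collagen, alpha-5/beta-1 binds fibronectin, and the alpha-V chain pairs with several beta chains. Alpha-V/beta-6, an epithelial integrin, and alpha-V/beta-8 release active TGF-beta from its latent complex, and alpha-V/beta-5 binds vitronectin. ICAM1 is the counter-receptor by which leukocyte beta-2 integrins hold on to epithelium and endothelium, and its gene is a textbook target of NF-kB and interferon signalling. L1CAM, first known from growing axons, binds itself and integrins and is found at the invasive edge of several carcinomas.

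The libraries held 53558773 to 68804210 gene counts. RBM24 itself stood at 2.35 to 3.50 CPM (counts scaled to library size) in the control libraries and at 109 to 125 CPM in the overexpression libraries, as their labels say. Control library 1 stood apart on the main axis of variation, with a value of -33.4. Values were -4.95 for control library 2, -0.0363 for control library 3 and 9.28 to 15.4 for the RBM24 libraries. The groups thus did not overlap on this axis (33% of the variation), and control library 1 was the farthest from the RBM24 libraries. A set of 15 small structured RNAs, 12 of them in the table, took a larger share of the counts of control library 1. It was 14.8-fold their average share in the other 5 libraries. All 9 squamous epithelial markers were above 1 FPKM. Their summed level was 613 to 643 FPKM in the control and 704 to 717 FPKM in the RBM24 libraries, which do not overlap. The largest part of this sum was SFN, at 285 FPKM in the control and 344 FPKM in the RBM24 libraries on average. In log2 fold change 8 of the 9 were positive and 1, TP63, negative. After adjustment edgeR called 0 of the 9. DESeq2 called 2 and limma-voom 1 higher, where they called 1.55% and 0.883% of all genes higher. The summed level of 9 fibroblast markers was 1.57 to 1.94 and 1.86 to 1.98 FPKM, and that of 7 endothelial markers 1.38 to 1.77 and 1.32 to 1.48 FPKM. That of 9 immune markers was 11.6 to 13.1 and 11.9 to 12.6 FPKM, most of it CD14 (10.6 and 10.4 on average). The fibroblast genes DCN and THY1 and the endothelial KDR and TEK averaged at most 0.00333 FPKM in either group. So did PTPRC, common to leukocytes, and CD3E, a T-cell gene. Other markers on these lists were present at low levels. CDH5, the endothelial cadherin that made up most of its list's sum, averaged 1.54 FPKM in the control and 1.33 FPKM in the RBM24 libraries (edgeR adjusted p = 0.255). The fibroblast genes COL1A1 (1.09 and 1.19) and PDGFRB (0.413 and 0.477) and the leukocyte integrin chain ITGB2 (0.793 and 0.903) lay in the same range of FPKM. So did the immune markers CD68 (0.52 and 0.543) and CSF1R (0.313 and 0.393). The part of the epithelial and the other markers in the results below was not tested.

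Of the 10 adhesion genes, L1CAM rose and ICAM1 fell with RBM24, and the other 8 did not pass the test (edgeR quasi-likelihood F test, Benjamini-Hochberg adjusted p under 0.05 over all genes), with or without control library 1. Over all tested genes 0.855% rose and 0.682% fell. DESeq2 and limma-voom also called L1CAM higher and ICAM1 lower and called none of the other 8; over all genes DESeq2 called 1.55% higher and 1.17% lower, and limma-voom 0.883% and 0.671%. At an unadjusted p under 0.05 in edgeR, 2 of the 10 were higher (L1CAM and ITGB5) and 4 lower (ITGA5, ITGAV, ITGB6 and ICAM1), where 6.62% and 6.40% of all genes were. The levels of 2 of the 10, L1CAM and ITGB5, were higher in every RBM24 library than in any control library, and those of ICAM1 and ITGA5 were lower in every one. Such separation was seen upward in 9.53% and downward in 8.62% of all genes. The median log2 fold change of the 10 was -0.12, against -0.004 over all genes, and the median size of change regardless of sign was 0.17 against 0.09. The 10 genes were chosen with earlier results of these data known, so the comparisons with all genes describe the 10 and do not test them as a set. Of the 7 integrin chains, 6 had a negative log2 fold change and 1, ITGB5, a positive one. Over all 17887 tested genes 9190 were negative. Of the 13 other integrin subunits tested, 10 were positive and 3 negative, but many of the positive ones were near the floor. ITGA7, ITGA10, ITGA2B, ITGAM, ITGAX and ITGB7, all positive, averaged at most 1.43 CPM in either group. The subunits with a control mean of 22.7 CPM or more were ITGA3 (log2 fold change -0.01), ITGAE (-0.01), ITGA6 (0.05) and ITGB4 (0.15).

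**Figure D1:**
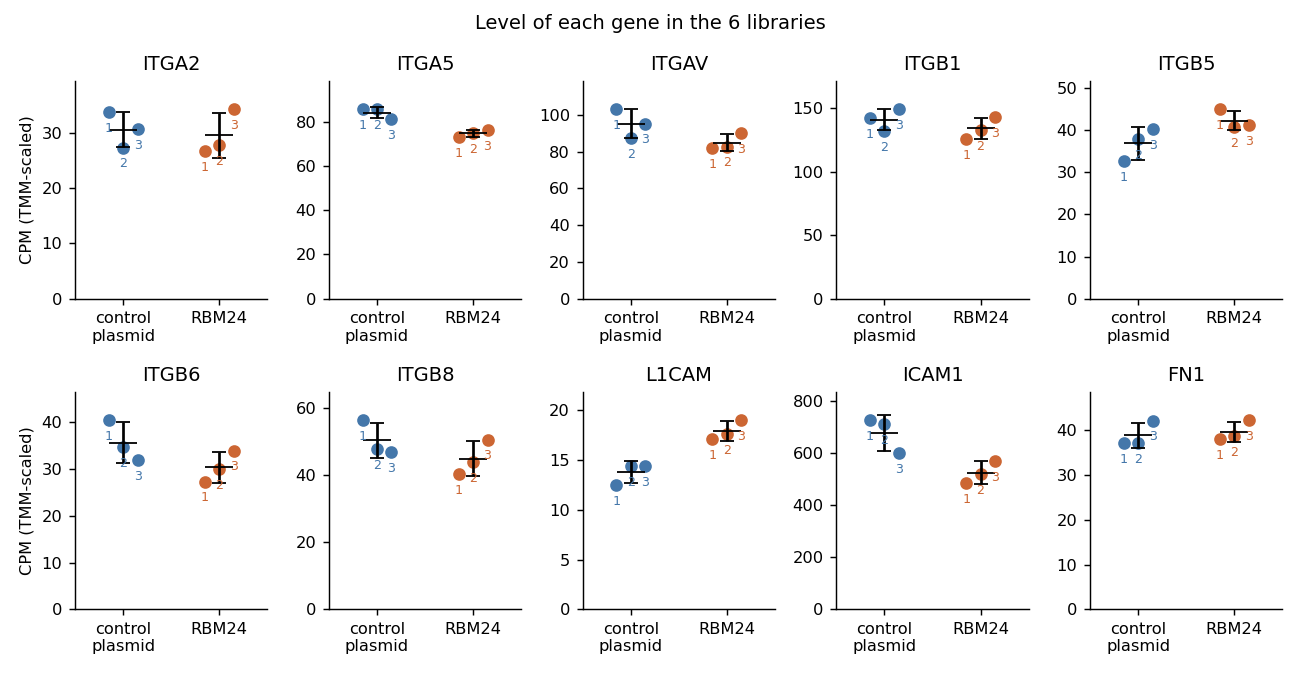
Level of each of the 10 genes in each library, in TMM-scaled CPM (vertical axes from 0), with control plasmid libraries in blue, RBM24 libraries in orange, the library number under each point, and the group mean with its SD (n = 3) in black. L1CAM at 12.5 to 14.4 against 17.1 to 19.0 CPM and ICAM1 at 601 to 728 against 486 to 571 CPM are the genes that passed the test.

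Short stretches around motif matches near the RefSeq start sites of L1CAM and ICAM1 are shown because these are the 2 genes that changed, in opposite directions. They come from RefSeq windows of GRCh38.p14, each the 250 bases before a RefSeq start, in the direction of the gene. GENCODE 29 places the start of both genes farther upstream: by that annotation all 250 bases of the ICAM1 window and 176 in each of the 2 L1CAM windows lie in exons of the gene. Of the stretches printed below, those of ICAM1 lie wholly in exons, whereas 2 of the 30 bases of the L1CAM stretch do. At ICAM1, capitals mark a match to GGAANTTCC, an NF-kB motif, at positions -186 to -178 from the RefSeq start (chr19:10270928-10270948, plus strand), and a TATAAA box at -30 to -25 (chr19:10271084-10271101, plus strand). At L1CAM, for the upstream one of 2 RefSeq starts, capitals mark 2 GGGCGG boxes at -47 to -42 and -35 to -30 (chrX:153876038-153876067, minus strand).
ICAM1, NF-kB motif: tagcttGGAAATTCCggagct
ICAM1, TATAAA box: tagcgcTATAAAggatca
L1CAM, GGGCGG boxes: agctggGGGCGGggctgaGGGCGGggccaa
Searched on both strands, GGAANTTCC was found before the RefSeq start of ICAM1 alone among the 10 genes, and in 0.826% of all 35116 RefSeq windows of this length. A second NF-kB spelling, GGGANTTCC (1.59% of windows; GGAANTTCC and GGGANTTCC cannot match at the same letters of 1 strand), and the AP-1 motif TGANTCA (6.57%) were found in the windows of 0 of the 10. TATAAA was found for ICAM1 and ITGB1 (10.7% of windows), and GGGCGG for 8 of the 10, all but ITGAV and ITGB6 (42.6%). The 10 genes have 15 such windows, with a median GC content of 66.0% against 58.0% over all windows, and a gene with several windows has more room for a match. These are matches of letters, and the counts per gene do not say which start site was in use.

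L1CAM (ENSG00000198910.14; GRCh38, GENCODE 29, chromosome X, 153861514 to 153886174, minus strand) rose 1.30-fold. Its raw counts were 686, 772 and 909 without RBM24 and 1184, 952 and 1169 with it. Scaled to library size these were 12.5, 14.4 and 14.4 CPM against 17.1, 17.6 and 19.0 CPM. The lowest RBM24 library thus lay above the highest control library, and control library 1 was the lowest of all. The means were 13.8 ± 1.11 and 17.9 ± 0.962 CPM (SD, n = 3 each), a log2 fold change of 0.38 (SE 0.0751, 95% interval 0.22 to 0.54; edgeR adjusted p = 0.0158). In the deposited FPKM values, which are divided by gene length, L1CAM stood at 1.54, 1.79 and 1.86 against 2.19, 2.27 and 2.46. These do not overlap either, but limma on log2(FPKM + 1) did not call the gene (0.28, adjusted p = 0.140). With the smaller pseudocount, limma on log2(FPKM + 0.1) gave 0.4 and did not call it either (adjusted p = 0.140). In edgeR L1CAM was called without control library 1 (0.31, adjusted p = 0.0483). The call ended without RBM24 library 2 (log2 fold change 0.39, adjusted p = 0.0734) or RBM24 library 3 (0.34, adjusted p = 0.0584). In a bulk sample more cells with the transcript and more transcript per cell cannot be told apart.

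ICAM1 (ENSG00000090339.9; chromosome 19, 10270835 to 10286615, plus strand) was the most abundant of the 10 by a wide margin, and it fell to 0.773-fold of the control level. Its raw counts were 40074, 38302 and 37854 without RBM24 and 33579, 28228 and 35118 with it. The scaled levels were 728, 712 and 601 CPM against 486, 522 and 571 CPM. Control library 3 and RBM24 library 3 came nearest to each other, and no RBM24 library reached a control library. The means were 681 ± 69.1 and 526 ± 42.3 CPM (SD, n = 3 each), a log2 fold change of -0.37 (SE 0.0737, 95% interval -0.53 to -0.22; edgeR adjusted p = 0.0159). Its FPKM values were 189.67, 187.42 and 163.71 against 130.99, 141.72 and 155.55, and limma on log2(FPKM + 1) gave -0.33 (adjusted p = 0.158). The call ended without RBM24 library 1 (-0.32, adjusted p = 0.0951) or RBM24 library 2 (-0.37, adjusted p = 0.103). It held without control library 1 (-0.32, adjusted p = 0.0411). An entry on the opposite strand that overlaps ICAM1 held 0.641 CPM on average.

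The genes whose levels followed ICAM1 and L1CAM most closely over the 6 libraries were sought among 10734 protein-coding genes whose mean log2 CPM reached 2. Likeness was the root mean square difference of log2 CPM after each gene's mean was taken off. Nearest to ICAM1 was PLAU, the urokinase plasminogen activator (0.0193), at 986, 962 and 820 CPM in the control and 661, 702 and 747 CPM in the RBM24 libraries. IRAK2, a kinase of interleukin-1 and Toll-like receptor signalling (0.0276), and the ephrin ligand EFNA1 (0.0325) came next. Nearest to L1CAM were BCL2L1, which encodes the survival protein BCL-XL (0.0499), the endothelial and melanoma adhesion molecule MCAM (0.0542) and the MAP kinase phosphatase DUSP10 (0.0587). The values for L1CAM are larger than those for ICAM1. L1CAM also had far fewer counts, 686 to 1184 a library against 28228 to 40074 for ICAM1. The part of count depth in the larger values was not tested. These 6 libraries include the 2 groups, so genes that differ between them by a like amount come out as alike.

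Among the alpha chains, ITGA5, the fibronectin receptor chain (chromosome 12, 54395261 to 54419460), stood at 85.5, 85.5 and 81.2 CPM in the control and 73.1, 75.0 and 76.2 CPM in the RBM24 libraries. No libraries overlapped, and the spread within each group was small. Its log2 fold change of -0.17 (SE 0.0480, 95% interval -0.27 to -0.07) did not pass (edgeR adjusted p = 0.104), and the adjusted p lay between 0.0566 and 0.425 over the alternatives. ITGAV, the shared partner of beta-5, beta-6 and beta-8 (chromosome 2, 186590065 to 186680901), stood at 103, 87.4 and 95.3 CPM against 81.8, 82.8 and 90.1 CPM. RBM24 library 3 lay above control library 2, so the groups overlapped (log2 fold change -0.17, 95% interval -0.30 to -0.04; adjusted p = 0.232), and the log2 fold change was -0.11 without control library 1. ITGA2, the collagen receptor chain (chromosome 5, 52989326 to 53094779), stood at 33.7, 27.3 and 30.6 CPM against 26.6, 27.7 and 34.2 CPM. The highest and the lowest value were both in RBM24 libraries. Its log2 fold change was -0.05 (95% interval -0.24 to 0.14; adjusted p = 0.880), and its sign turned without control library 1 (0.03) or RBM24 library 1 (0.02).

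Among the beta chains, ITGB5 (chromosome 3, 124761948 to 124901418) was the integrin with a positive value: 32.6, 37.8 and 40.2 CPM in the control and 44.9, 40.7 and 41.1 CPM in the RBM24 libraries. The groups did not overlap, but control library 3 (40.2) and RBM24 library 2 (40.7) were nearly level. The log2 fold change of 0.19 (SE 0.0719, 95% interval 0.04 to 0.35) did not pass (edgeR adjusted p = 0.239), and was 0.11 without control library 1, the lowest for this gene. ITGB6, the epithelial beta chain (chromosome 2, 160099666 to 160200313), stood at 40.4, 34.6 and 31.8 CPM against 27.3, 29.9 and 33.9 CPM. RBM24 library 3 lay above control library 3. Its log2 fold change of -0.23 (SE 0.0875, 95% interval -0.41 to -0.04; adjusted p = 0.266) was the second lowest of the 10 and became -0.13 without control library 1. With no filter on low counts ITGB6 was called (adjusted p = 0.0260).

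ITGB8 (chromosome 7, 20330702 to 20415754) stood at 56.3, 47.8 and 46.8 CPM in the control and 40.3, 43.7 and 50.5 CPM in the RBM24 libraries. RBM24 library 3 was above control libraries 2 and 3 (log2 fold change -0.17, 95% interval -0.34 to 0.01; edgeR adjusted p = 0.401). With control library 1 dropped, ITGB8 had a log2 fold change of -0.08; dropping RBM24 library 1 made it -0.09, and dropping RBM24 library 3 made it -0.26. An opposite-strand entry overlapping ITGB8 held 3.48 CPM on average, and the sources used here do not say whether counting was stranded. ITGB1, the common beta chain (chromosome 10, 32900319 to 33005792), stood at 142, 132 and 149 CPM against 126, 133 and 143 CPM, largely overlapping. The interval of its log2 fold change of -0.07 ran from -0.19 to 0.05 (adjusted p = 0.669), so a fall below 0.876-fold or a rise above 1.04-fold lies outside it. It was -0.03 without control library 3 or RBM24 library 1, -0.11 without control library 2 and -0.12 without RBM24 library 3. FN1, the matrix ligand of alpha-5/beta-1 and several alpha-V integrins (chromosome 2, 215360440 to 215436172), stood at 37.2, 37.2 and 42.2 CPM against 38.0, 38.8 and 42.3 CPM. Its log2 fold change was 0.03 (95% interval -0.11 to 0.17; adjusted p = 0.896).

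**Figure D2:**
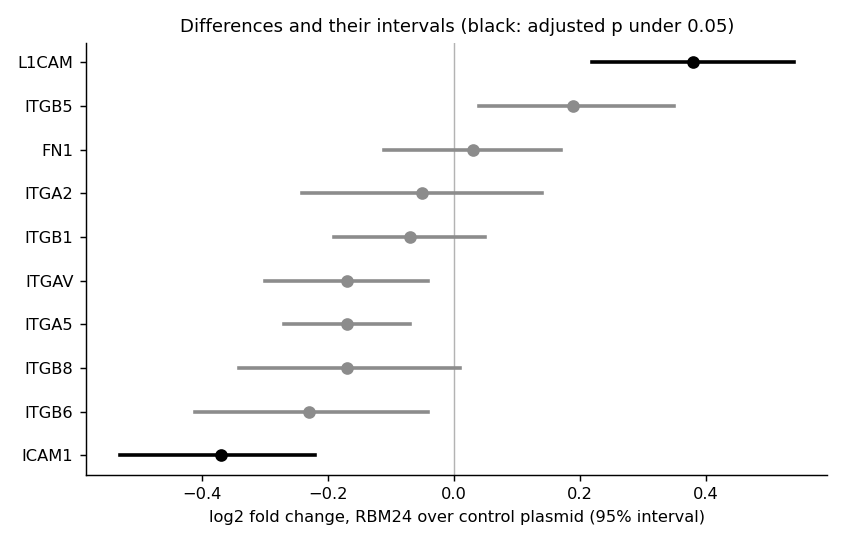
Log2 fold change of each of the 10 genes, RBM24 over control plasmid (horizontal axis), with its 95% interval from the edgeR fit, not adjusted for the number of genes. The 2 black genes, L1CAM at 0.38 and ICAM1 at -0.37, passed the adjusted test, and the 8 grey ones did not.

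Several of the 10 genes had their extremes in the same libraries. RBM24 library 1 held the lowest level of 7 genes (ITGA2, ITGA5, ITGAV, ITGB1, ITGB6, ITGB8 and ICAM1) and the highest of ITGB5. Control library 1, the library that stood apart, held the highest level of ITGAV, ITGB6, ITGB8 and ICAM1 and the lowest of ITGB5 and L1CAM. RBM24 library 3 held the highest level of ITGA2, L1CAM and FN1. The share of all genes with an extreme in each library was not computed, so these counts cannot be called a trait of the 10. The closest pair was ITGB6 and ITGB8, the chains of the TGF-beta-activating integrins, with a root mean square difference of 0.0408 on the centred log2 CPM scale over 6 libraries. ITGB6 lay at 0.30, 0.08 and -0.04 from its own mean without RBM24 and at -0.26, -0.13 and 0.05 with it, and ITGB8 at 0.25, 0.02 and -0.02 and at -0.23, -0.11 and 0.09. The next pair, ITGB1 and FN1, was at 0.0633. These pairs share libraries, depth and scaling.

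Levels were compared between genes in the deposited FPKM values, per gene length. ICAM1, at 180 ± 14.4 FPKM (SD, n = 3) in the control libraries, stood 17.0-fold above the next gene and 104-fold above the last. ITGAV (10.6 ± 0.853) and ITGA5 (10.4 ± 0.0917) followed and overlapped each other. ITGB1 (8.85 ± 0.702), ITGB6 (5.61 ± 0.575) and ITGB5 (5.19 ± 0.649) came next, of which ITGB6 and ITGB5 overlapped in the control libraries. In the RBM24 libraries ITGB5, at 5.85 to 6.39 FPKM, lay wholly above ITGB6, at 4.39 to 5.51 FPKM. ITGA2 (3.53 ± 0.355) and ITGB8 (3.03 ± 0.261) overlapped, and FN1 (2.07 ± 0.202) and L1CAM (1.73 ± 0.168) closed the order, apart in the control libraries and overlapping in the RBM24 libraries, where L1CAM stood at 2.19 to 2.46 and FN1 at 2.05 to 2.31 FPKM.

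**Figure D3:**
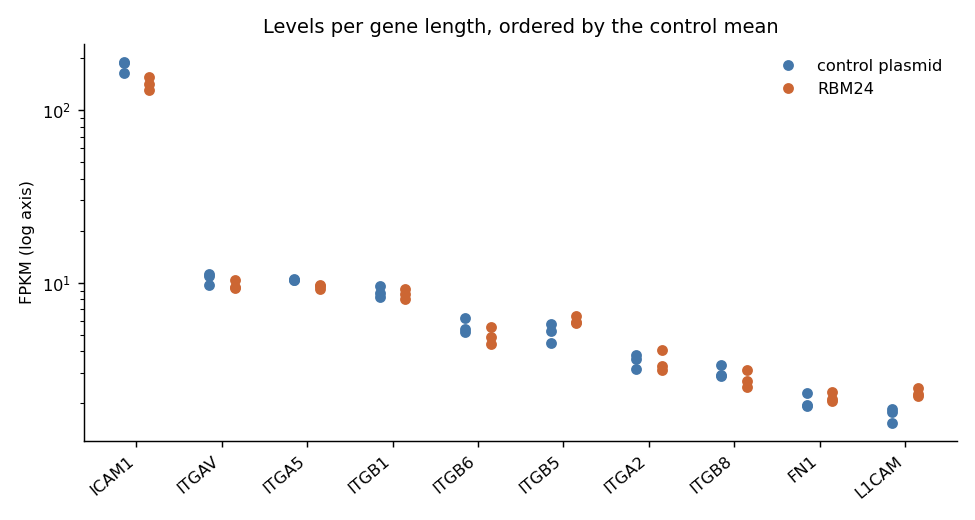
Deposited FPKM of each gene in the 3 control plasmid libraries (blue) and the 3 RBM24 libraries (orange) on a log axis, ordered by the control mean. ICAM1, at 130.99 to 189.67 FPKM, stands above the other 9 genes, which lie between 1.54 and 11.29 FPKM.

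This order depends on the gene length behind the FPKM. The length that the deposited counts and FPKM values imply was 15.7 kb for ITGB1, against 6.01 kb for the joined exons of ITGB1 in GENCODE 29 and 3.78 kb for its longest protein-coding transcript. In the other 9 genes the implied length was closer to that of the joined exons, as in ICAM1 (3.73 and 3.71 kb) and ITGB8 (16.4 and 15.2 kb). Among these 9 it was farthest in ITGB6 (6.26 and 4.69 kb). Per kilobase of the longest protein-coding transcript, a scale chosen after the data were seen, ITGB1 moved from the fourth place to the second, at 37.2 ± 2.27 CPM per kb (SD, n = 3) in the control libraries. ICAM1 stayed first at 209 ± 21.3 CPM per kb, L1CAM stayed last at 2.68 ± 0.217 CPM per kb, and ITGA2 dropped below ITGB8 and FN1. By the control means ITGA5 (18.9 CPM per kb) passed ITGAV (13.6), and ITGB5 (8.44) passed ITGB6 (7.61). The control libraries of ITGB5 and ITGB6 overlapped on this scale too. The fold changes between groups do not depend on the length.

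The make-up of 4 beta chains was followed as the share of each in the summed FPKM of ITGB1, ITGB5, ITGB6 and ITGB8. ITGB4, at 41.8 FPKM on average in the control and 47.3 FPKM in the RBM24 libraries, was not part of this sum. The shares are thus among these 4 chains and not of all beta chains in the cells. ITGB5 took 19.7, 24.2 and 24.7% in the control and 30.0, 26.6 and 24.9% in the RBM24 libraries. The groups did not overlap, by a margin of less than the spread within either of them. The means were 22.9 ± 2.74 and 27.2 ± 2.58% (SD, n = 3 each), and the exact two-sided permutation test gave p = 0.1, the smallest that 3 against 3 allows, or 0.4 adjusted over the 4 chains. ITGB6 took 27.4, 24.9 and 22.0% against 20.6, 22.0 and 23.2% (exact permutation p = 0.2), and ITGB8 took 13.4 ± 1.13 and 12.3 ± 0.790% (SD, n = 3 each; exact permutation p = 0.3). ITGB1 took 39.0 ± 1.72 and 38.6 ± 0.635% (SD, n = 3 each; exact permutation p = 0.9). Per kilobase of the longest transcript ITGB1 took 63.0% and ITGB5 14.3% in the control and 62.5 and 17.1% in the RBM24 libraries, so the shares themselves hang on the length and the order of the groups for ITGB5 does not.

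**Figure D4:**
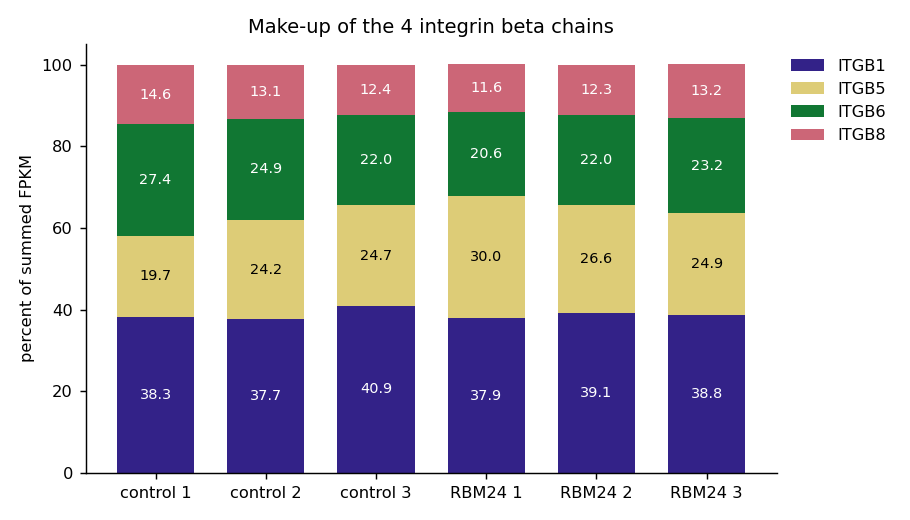
Share of each of 4 integrin beta chains in their summed FPKM, in percent, in each of the 6 libraries. The share of ITGB5 runs from 19.7 to 24.7% in the control and from 24.9 to 30.0% in the RBM24 libraries, while that of ITGB1 stays between 37.7 and 40.9%.

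The rest of the adhesion machinery was followed in 5 lists with 129 genes in all, of which 110 were tested. In edgeR 3 of them rose and 0 fell after adjustment, DESeq2 gave 5 and 0, and limma-voom 4 and 0. Over all genes these shares were 0.855% and 0.682% in edgeR, 1.55% and 1.17% in DESeq2, and 0.883% and 0.671% in limma-voom. At an unadjusted p under 0.05 in edgeR, 16 of the 110 were higher and 6 lower, where 6.62% and 6.40% of all genes were. The lists too were chosen with earlier results of these data known. Of 13 tested other integrin subunits, 0 passed in edgeR, DESeq2 or limma-voom (2 higher and 1 lower at an unadjusted p under 0.05), with a median log2 fold change of 0.15. The subunits near the floor named above are part of this median. ITGB4, the hemidesmosome beta chain, had 0.15 (edgeR adjusted p = 0.346; 0.07 without control library 1), the collagen receptor chain ITGA1 -0.25 (adjusted p = 0.225), and the laminin receptor chain ITGA7, at under 1 CPM, 0.50 (adjusted p = 0.382). ITGB4 stood at 41.8 FPKM in the control libraries, above every integrin chain among the 10 genes. The integrin ligands held 26 tested genes with a median of 0.05. The 1 that rose was CCN2, the connective tissue growth factor: 38.8, 39.0 and 42.3 CPM against 52.3, 55.6 and 58.0 CPM, a log2 fold change of 0.47 (SE 0.0582; edgeR adjusted p = 4.24e-04). THBS1, thrombospondin-1, had 0.27 (adjusted p = 0.0732) and was called under 6 of 17 alternatives, DESeq2 among them (adjusted p = 0.00729), and SPP1, osteopontin, 0.72 at 0.968 CPM in the control (adjusted p = 0.0673). SPP1 was called with no filter on low counts (adjusted p = 0.00883) and with scaling to total counts alone (0.0474).

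Of 36 genes of integrin activation and focal adhesions, 2 rose and 0 fell in edgeR, where 0.855% and 0.682% of all genes did. The median of the 36 was 0.006, near that of all genes. At an unadjusted edgeR p under 0.05, 5 were higher and 1 lower, where 6.62% and 6.40% of all genes were. The libraries of the 2 groups did not overlap upward in 10 of the 36 and downward in 5, against 9.53% and 8.62% of all genes. TLNRD1, a talin-related actin-bundling protein, stood at 27.3, 30.9 and 28.9 CPM in the control and 37.1, 35.4 and 37.2 CPM in the RBM24 libraries (log2 fold change 0.33, SE 0.0621; edgeR adjusted p = 0.0113). CD9, a tetraspanin that associates with integrins, stood at 91.9, 87.9 and 81.3 against 101, 105 and 102 CPM (log2 fold change 0.24, SE 0.0527; adjusted p = 0.0301). Without RBM24 library 1 or 2, TLNRD1 was not called (adjusted p = 0.0651 and 0.0516), nor was CD9 (0.0884 and 0.213). CD9 was not called either without RBM24 library 3 (0.0563) or control library 3 (0.108). CD47, the thrombospondin receptor that associates with beta-3 integrin, had -0.21 and did not pass (adjusted p = 0.152). It was -0.12 without control library 1, and was called lower with no filter on low counts (adjusted p = 0.0121).

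Relatives of ICAM1 and L1CAM did not pass in edgeR, DESeq2 or limma-voom. Of 22 tested immunoglobulin-superfamily adhesion genes, 2 were higher and 2 lower at an unadjusted edgeR p under 0.05. Over all genes 6.62% and 6.40% were. In this list 9 genes had positive and 13 negative log2 fold changes, with a median of -0.05. ICAM3 had 0.27 (edgeR adjusted p = 0.268), MCAM 0.29 (adjusted p = 0.120) and NECTIN1, a partner of adherens junctions, -0.20 (adjusted p = 0.126). Of 13 tested cytoplasmic partners and sheddases, 0 passed in any of these tools (2 higher and 1 lower at an unadjusted p under 0.05), with a median of 0.001. The membrane-actin linkers EZR and MSN, which bind the tail of ICAM1, both had 0.12 (adjusted p = 0.346 and 0.303), and ANK3, an ankyrin of the family that anchors L1CAM, had -0.24 (adjusted p = 0.200).

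**Figure D5:**
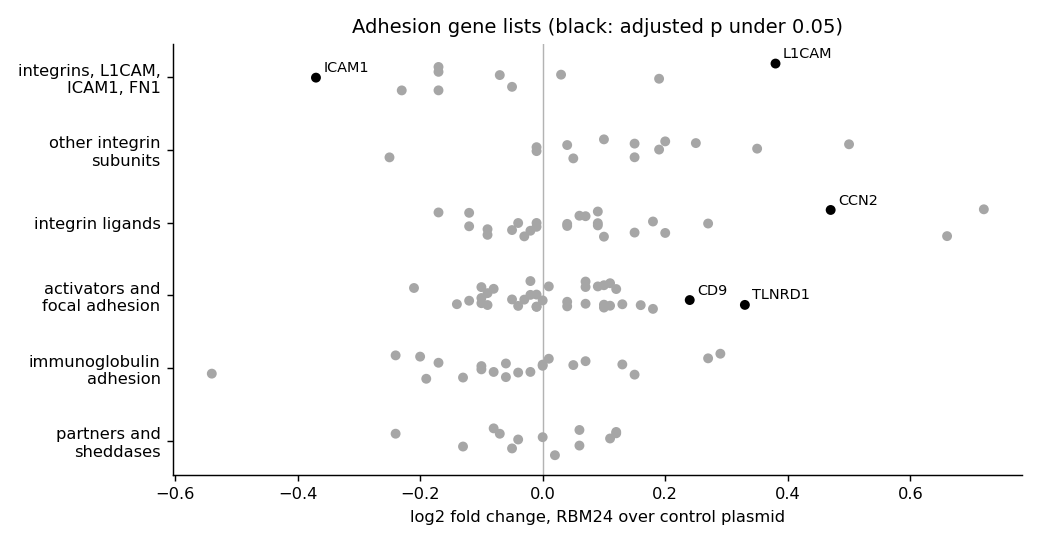
Log2 fold change, RBM24 over control plasmid (horizontal axis), of each tested gene of the 10 adhesion genes and of the 5 adhesion lists, 1 point a gene, spread vertically for legibility. Black points passed the adjusted test: ICAM1 at -0.37 on the left, and L1CAM, CCN2, TLNRD1 and CD9 at 0.24 to 0.47 on the right.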

How the data were processed

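Total RNA of 6 CAL27 libraries was read as 150-nt pairs, per the labels' protocols. Reads were aligned to GRCh38 with HISAT2, per the submitters' processing notes. The sources used here name no counter, annotation, gene length or strand setting. The deposited count table holds the authors' raw whole-number counts per gene, and the deposited FPKM table holds the authors' values per gene length and library size, with 2 decimals. Columns marked NC were read as control plasmid.

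Counts were fitted in R 4.3.3 with edgeR 4.0.16: filterByExpr, TMM scaling (factors 0.976 to 1.02), a quasi-likelihood F test of group with 4 residual degrees of freedom, and Benjamini-Hochberg adjustment over 17887 genes. The SE is the log2 fold change divided by the square root of F. CPM values are TMM-scaled. The adhesion genes, lists and tests were chosen with earlier results of these data known. Named genes are the 10 members, the called genes and the 3 with the smallest p of each adhesion list, and the 3 genes most like each called member. Alternatives were other scalings and filters, DESeq2 1.42.0, limma 3.58.1 on voom values and FPKM, a replicate block and leaving out each library. Of the tested gene identifiers, 98.5% are in GENCODE 29, which gave coordinates. No library was a copy of another: chi-square per gene between pairs was at least 4.52. In counts simulated for this comparison with 17887 genes, the fit recovered 50% of 50 genes changed 1.25-fold, 80% at 1.5-fold and 100% at 2-fold, with 21 false among 186 calls.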

Additional observations from a re-analysis of the deposited data

How the results depend on the processing

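The values for single members kept their direction and their side of the threshold in 154 of 170 comparisons with an alternative. The direction turned in 5: ITGA2 without control library 1 (0.03) or RBM24 library 1 (0.02), and FN1 without control library 1 (-0.00156), control library 2 (-0.000524) or RBM24 library 3 (-0.02). Without 1 library the value of ITGA2 ran from -0.17 to 0.03 and that of FN1 from -0.02 to 0.09. The cause was not tested. L1CAM and ICAM1 were each called under 12 of 17 alternatives, with log2 fold changes of 0.28 to 0.42 and -0.45 to -0.32. Their adjusted p ranged from 9.83e-05 to 0.282 and from 1.40e-08 to 0.335.

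Over all genes, 153 rose and 122 fell. The numbers were 305 and 341 with no low-count filter, and in limma 57 and 5 on log2(FPKM + 0.1), 46 and 4 with a pseudocount of 1, and 15 and 4 when the filter was also dropped. Leaving out 1 library gave 61 to 171 higher and 29 to 198 lower. With the 3 FPKM settings 0 members rose and 0 fell, and with no filter 2 fell. Leaving out 1 library gave 0 to 1 higher and 0 to 1 lower. Of the adhesion lists, 3 genes rose and 0 fell. This became 6 higher with total counts only, 5 higher and 1 lower with no filter, 5 higher with DESeq2, 1 higher with either filtered FPKM setting and 0 with the unfiltered one, and 1 to 3 higher and 0 lower without 1 library. The beta-chain differences without 1 library were -1.03 to 0.572 percentage points for ITGB1, 2.71 to 5.43 for ITGB5, -4.25 to -1.54 for ITGB6 and -1.52 to -0.407 for ITGB8.

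Deviations of libraries with the same replicate number correlated at -0.00039 to 0.0555. Taken over all tested genes, these values cannot show whether libraries of the same number were made in pairs. The fit with the replicate number as a block called 158 genes higher and 135 lower, with L1CAM at 0.38 (edgeR adjusted p = 0.0108) and ICAM1 at -0.37 (adjusted p = 0.0132), and changed no call among the 10 members; of the named list genes it called THBS1 in addition (0.28, adjusted p = 0.0139). FPKM values with 2 decimals limit the precision of low genes.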
